A study of Mus musculus with 15 samples.

Results

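A group of 8 liver transcription factor genes was followed in ribosome profiling of mouse liver: Cebpa, Cebpb, Cebpd, Foxa1, Foxa2, Foxa3, Onecut1 and Prox1. They were chosen by gene symbol, and all RefSeq transcripts with one of these symbols were taken, which gave 16 transcripts of 8 genes among 28167 transcripts in all. Of these, 327 had no symbol in the RefSeq table, and the others belonged to 20101 named genes. The animals were wild-type C57BL/6N males aged 8 to 10 weeks that had been kept in a cycle of 12 h light and 12 h dark for 2 weeks and were then moved to constant darkness. After 24 h of darkness, whole livers were taken every 4 h from circadian time (CT) 0 to CT24, at 7 times in all and from 2 mice each, which gave 14 libraries. No group carried a mutation or received an agent, so the comparison is of circadian times only. Reads were counted separately in the 5′UTR, the CDS and the 3′UTR of each transcript.

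Hepatocyte identity is maintained by a small set of transcription factors that bind together at the enhancers of liver genes. C/EBP proteins are basic leucine zipper factors that bind DNA as dimers, FOXA proteins are forkhead factors that can bind DNA within compacted chromatin, Onecut1 (HNF6) is a cut homeodomain factor of hepatocytes and bile duct cells, and Prox1 is a homeodomain factor of hepatocytes and lymphatic endothelium. Cebpa and Cebpb are intronless, and each mRNA is translated into longer and shorter proteins from several start codons in one frame. The short forms lack activation domains, and a short upstream open reading frame (uORF) in each mRNA is known to influence which start is used. Reads in whole liver come from all of its cells, and fewer cells of a type cannot be told apart from less ribosome-bound RNA per cell.

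The start codons of Cebpa and Cebpb are shown because the reads between them are measured below. Sequences were read from GRCm38.p6 (mm10) with the RefSeq annotation, and the start codon is in capitals. RefSeq lists 5 Cebpa starts on one exon of the plus strand, chr7:35119293-35121928, at nt 16, 127, 169, 478 and 766 of the mRNA, and the first is a CTG.
Cebpa start at nt 16: ccgaagCTGcgcg
Cebpa start at nt 127: tcccccATGgagt
Cebpa start at nt 169: cccccgATGagca
Cebpa start at nt 478: gcggtcATGtccg
Cebpa start at nt 766: accaccATGcacc

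Cebpb has 3 listed starts on one exon of the plus strand, chr2:167688915-167690432, at nt 108, 171 and 561.
Cebpb start at nt 108: gcgttcATGcacc
Cebpb start at nt 171: agacccATGgaag
Cebpb start at nt 561: cccgccATGgcgg

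A uORF was taken as an ATG followed by a stop codon in its frame, both before the annotated CDS. The Cebpa uORF lies at chr7:35119394-35119411, in the 5′UTR of the transcript that starts at nt 127, and ends 7 nt before that start. The Cebpb uORF lies at chr2:167689051-167689080, inside the longest CDS but in another frame, and ends 4 nt before the start at nt 171. The 5′UTR of Onecut1 holds an ATG followed directly by a stop codon (chr9:74862217-74862222, plus strand), and that of Prox1 a uORF 10 nt before the CDS (chr1:190162257-190162268, minus strand). Start and stop codons are in capitals.
Cebpa uORF: ATGccgggagaactcTAA
Cebpb uORF: ATGcctcccgccgccgcccgccgccttTAG
Onecut1 uORF: ATGTGA
Prox1 uORF: ATGgcacaaTAA
Foxa1 has a uORF of 252 nt, and Cebpd, Foxa3 and the main Foxa2 transcript have none by this definition. For Prox1 and Foxa1 the 5′UTR length in the count tables, 481 and 386 nt, differs from that of the annotation, 627 and 376 nt, so the place of their uORFs in the counted region is uncertain.

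Total counts per library ran from 40593197 to 90458783. The library of CT20 replicate 2 stood apart by exocrine pancreas transcripts: the summed level of 8 pancreas markers was 2750 CPM (reads per 1000000 counts after TMM scaling) there and 2.47 to 54.5 in the other 13 libraries. Acute phase and immediate early genes summed to 1130 CPM in CT12 replicate 1 and 812 in CT8 replicate 2, against 545 and 549 in their partners and 403 to 649 in the other 10 libraries. Every nonzero count of CT16 replicate 2 was an even number. Markers of hepatocytes summed to between 33400 and 47200 CPM, against 83.8 to 149 for Kupffer cells, 86.3 to 134 for sinusoidal endothelium and 11 to 24.4 for cholangiocytes. The neutrophil markers reached 1.37 at most, and Camp, one of them, had 0 reads in all 14 libraries.

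The CDS of Cebpa carried the highest read density of the 8 genes and that of Cebpd the lowest. Density is given as RPKM, CDS reads per kilobase and 1000000 counts of the library, with the SD over 14 libraries. Cebpa had 82.2 ± 27.7 RPKM, Cebpb 48.6 ± 20.8 and Foxa3 21.6 ± 9.45. Prox1 with 9.59 ± 3.45, Onecut1 with 8.79 ± 5.97 and Foxa2 with 8.27 ± 4.59 formed a middle group. Foxa1 had 3.96 ± 1.83 RPKM and Cebpd 2.21 ± 1.41. Among all 17299 transcripts tested, these means stood between the 48.7th percentile (Cebpd) and the 96.1th (Cebpa).

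**Figure D1:**
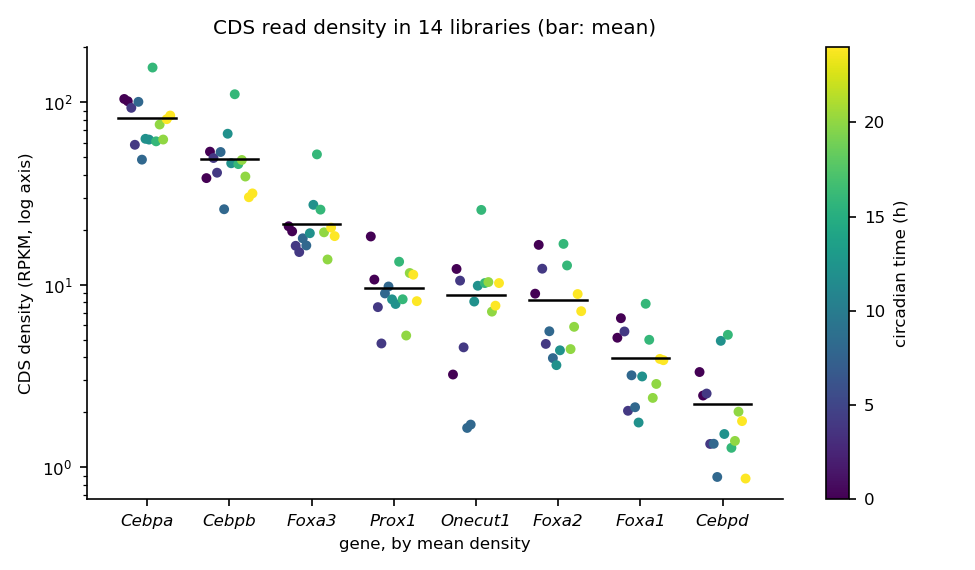
CDS read density (RPKM, log axis) of each gene in the 14 libraries, colored by circadian time, with the mean as a bar. Cebpa, Cebpb and Foxa3 lead, and the points of Prox1, Onecut1 and Foxa2 overlap.

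Neighbors in this order were compared within each library by their log2 ratio. Cebpa exceeded Cebpb in 13 of 14 libraries, by 0.79 ± 0.44 (SD), but by whole-transcript density the step was within its spread (0.37 ± 0.44, 12 of 14 libraries). Whole-transcript density also divides by the length of the 3′UTR, 1433 nt in Cebpa and 520 nt in Cebpb, which held only 284 and 117 reads. Cebpb exceeded Foxa3 in 14 of 14, by 1.16 ± 0.41, and Foxa3 exceeded Prox1 in 14 of 14, by 1.17 ± 0.57. The next steps were within their spread: Prox1 exceeded Onecut1 in 7 of 14 libraries (0.38 ± 1.24) and Onecut1 exceeded Foxa2 in 6 of 14 (-0.05 ± 0.96). Foxa2 exceeded its paralog Foxa1 in 14 of 14 libraries, by 1.01 ± 0.24, the smallest spread of any step. Foxa1 exceeded Cebpd in 13 of 14, by 0.92 ± 0.85.

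Rhythms of the whole-transcript reads were tested with a 24-h cosine in edgeR, with p adjusted over all 17299 transcripts, and levels below are CPM. Of the 8 genes, 2 passed an adjusted p of 0.05, Cebpb and Foxa3, where 11.3% of all transcripts tested did. The median peak-to-trough difference of the 8 genes in this fit was 0.79 on the log2 scale, and that of all transcripts tested was 0.44. A fitted difference also grows with noise, and the SD between mice of one time was above the median of all transcripts (0.29) in each of the 8 genes (0.33 to 0.77), so these medians are a description only. With 2 animals at each time, p-values rest on the spread between these mice. For the cosine they also rest on how far the times lie from the fitted curve.

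**Figure D2:**
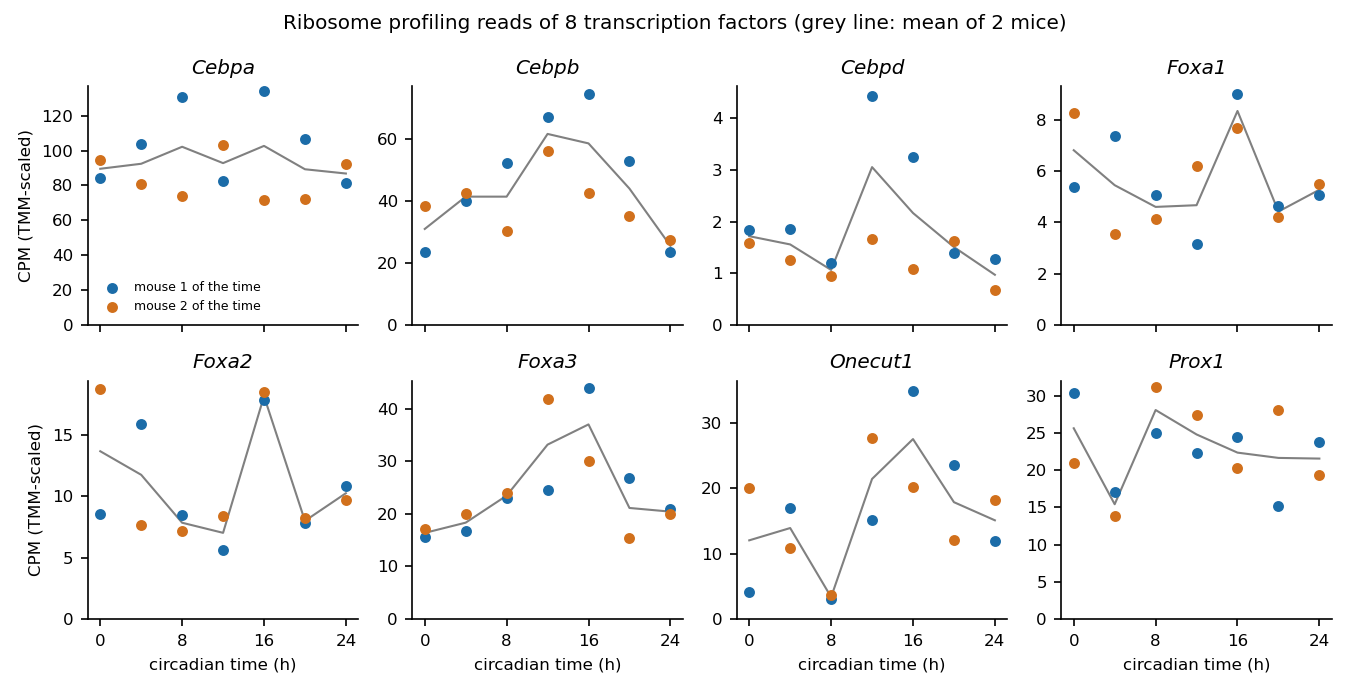
CPM (TMM-scaled, whole transcript) of each gene against circadian time, 1 point per mouse, with the mean of the 2 mice as a grey line. Cebpb and Foxa3 are highest at CT12 and CT16, and Onecut1 is lowest at CT8.

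Cebpb, an activator of acute phase and gluconeogenic genes, was highest around the start of the subjective night. Its 2 mice had 23.6 and 38.3 CPM at CT0, 40.2 and 42.7 at CT4, 52.4 and 30.4 at CT8, 67.1 and 56.3 at CT12, 74.7 and 42.6 at CT16, 53.0 and 35.03 at CT20, and 23.6 and 27.4 at CT24. Both CT12 mice lay above every mouse of CT0, CT4, CT8, CT20 and CT24, while the CT16 pair differed 1.75-fold from each other. The mean fell from 61.7 at CT12 to 25.5 at CT24, a ratio of 2.42 between the highest and the lowest time. The adjusted p was 0.0143 (edgeR), and a least-squares cosine peaked at 13.2 ± 1.14 h (SE) with a peak-to-trough of 1.03 ± 0.28 on the log2 scale. The first and the second mice of each time, fitted alone, peaked at 13.3 and 12.9 h, with peak-to-trough differences of 1.56 and 0.49. Scaled by the total count, Cebpb was no longer called (adjusted p = 0.142, edgeR), nor with CT12 (0.0994) or CT24 (0.0821) left out. Its value of 67.1 at CT12 came from the library with the highest acute phase sum, without which the adjusted p was 0.0454, the weakest of the 14 runs without 1 library. Without both libraries of high acute phase sum it was 0.02 for Cebpb and 0.00229 for Foxa3 (edgeR).

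Foxa3, the FOXA paralog with the most reads here, had a like course. Its mice had 15.6 and 17.2 CPM at CT0, 16.7 and 19.9 at CT4, 22.9 and 23.98 at CT8, 24.5 and 41.8 at CT12, 43.9 and 30.1 at CT16, 26.8 and 15.4 at CT20, and 20.8 and 20.0 at CT24. All 4 mice of CT12 and CT16 lay above all 8 mice of CT0, CT4, CT8 and CT24. The mean was 37.0 at CT16 and 16.4 at CT0, a ratio of 2.26. The adjusted p was 0.00353 (edgeR), with a least-squares peak at 13.8 ± 0.949 h (SE) and a peak-to-trough of 1.01 ± 0.23 on the log2 scale. The first mice peaked at 15.5 h and the second at 11.9 h. Total-count scaling gave an adjusted p of 0.0726 (edgeR), so neither gene was called under it. Without the CT20 library rich in pancreas transcripts, the adjusted p was 0.000503 for Foxa3 and 0.0128 for Cebpb (edgeR).

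The scaling factors themselves gave a fitted 24-h curve, which was not tested and also grows with noise between libraries. TMM factors ran from 0.736 to 1.46, and a cosine through their log2 values had a peak-to-trough of 0.46 with its peak at 22.4 h, so a transcript that is flat under TMM scaling carries this curve under total-count scaling. DESeq2 size factors and upper-quartile factors gave the same curve within 0.01 in size. Which scaling is closer to the amount of ribosome-bound RNA per liver was not tested.

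Markers of other cell types were at their lowest at CT16, where Foxa3, Onecut1, Foxa1, Foxa2 and Cebpa had their highest means. The mean marker sum at CT16, against the highest of the 7 times, was 11.2 against 19.9 CPM for cholangiocytes, 93.6 against 126 for sinusoidal endothelium, 102 against 146 for stellate cells and 8.85 against 11.8 for lymphatic endothelium. Kupffer cell, neutrophil and pancreas markers had their lowest mean at CT16 as well, and the part of these cells in the levels of the 8 genes was not tested.

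Onecut1 varied most among the 8 genes. Its 2 mice had 4.07 and 20.0 CPM at CT0, 17.0 and 10.9 at CT4, 3.03 and 3.70 at CT8, 15.2 and 27.6 at CT12, 34.9 and 20.2 at CT16, 23.6 and 12.1 at CT20, and 12.0 and 18.2 at CT24. Both CT8 mice lay below all 12 other mice, and the CT0 pair differed 4.92-fold. The mean was 27.5 at CT16 and 3.36 at CT8, a ratio of 8.18. The cosine gave an adjusted p of 0.176 (edgeR), and the least-squares cosine had a peak-to-trough of 1.91 ± 0.79 (SE) on the log2 scale. A test of the 7 times as separate levels gave 0.0363. By that test 2 of the 8 genes differed among times, Onecut1 and Foxa3 (0.0348), where 7.08% of all transcripts did. Both calls rest on single libraries. That of Onecut1 was lost in 6 of 14 runs without 1 library, those without either CT8 library (0.247 and 0.176), CT4 replicate 2, CT16 replicate 1 or either CT24 library (0.0568 to 0.0909), without both libraries of high acute phase sum (0.172), and with the DESeq2 likelihood ratio test (0.0639). That of Foxa3 was lost in 9 of 14 such runs (0.0569 to 0.133), those without CT16 replicate 1 or any library of CT0, CT4, CT8 or CT24. The cholangiocyte marker sum was 24.4 in CT0 replicate 1, its highest value, where Onecut1 was at 4.07, and 12.9 and 20.5 at CT8.

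Foxa1 and Foxa2, the paralogs that act together in liver development, had no 24-h cosine past the threshold (adjusted p = 0.682 and 0.582, edgeR). Foxa2 had 8.57 and 18.8 CPM at CT0, 15.9 and 7.64 at CT4, 8.52 and 7.18 at CT8, 5.61 and 8.43 at CT12, 17.8 and 18.5 at CT16, 7.79 and 8.21 at CT20, and 10.8 and 9.68 at CT24. It stood above 15 in 4 libraries, CT0 replicate 2, CT4 replicate 1 and both of CT16, and between 5.61 and 10.8 in the other 10. The same 4 libraries held 4 of the 4 highest Foxa1 values, 7.38 to 9.05, against 3.15 to 6.21 in the others. Among times, the adjusted p was 0.0637 for Foxa2 and 0.376 for Foxa1 (edgeR), and with total-count scaling 0.000757 and 0.0145. All 3 listed Foxa2 transcripts, which share most of their reads, gave cosine p-values of 0.571 to 0.582 after adjustment.

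Cebpa, which holds hepatocytes in a quiescent and metabolic state, was the steadiest of the 8 between times. It ranged from 71.3 to 134 CPM with a median of 88.3, and its means at the 7 times ran from 86.8 at CT24 to 102.7 at CT16. Its SD between times was 0.07 on the log2 scale and its SD between mice of one time 0.39, where the medians over all transcripts tested were 0.26 and 0.29. The cosine gave an adjusted p of 0.826 (edgeR). The 3 largest values, 134, 130.6 and 106.6, belonged to mice whose partners at the same time were at 71.3, 73.8 and 72.0.

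Prox1, a corepressor of bile acid and lipid genes as well as a developmental factor, ranged from 13.8 to 31.2 CPM with a median of 23.0 (adjusted p = 0.784, edgeR cosine). Its lowest mean, 15.4, was at CT4 and its highest, 28.1, at CT8, with no overlap between the 2 pairs, but the 7 times did not differ past the threshold (0.388). Cebpd, an inflammation-induced C/EBP, had only 1514 reads in all 14 libraries and ranged from 0.669 to 4.44 CPM. Its highest values, 4.44 at CT12 and 3.26 at CT16, each had a partner mouse at 1.67 and 1.08, and the adjusted p was 0.261 (edgeR cosine). The 4.44 came from the CT12 library with the highest acute phase sum, without which the adjusted p was 0.602. The part of an acute phase response in the levels of Cebpb and Cebpd was not tested.

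Reads in the 5′UTR were set against those in the CDS because Cebpa and Cebpb carry uORFs. Per nucleotide, Onecut1 was the one gene whose 5′UTR held on average as many reads as its CDS, and the stretch before the first start of Cebpb and of Cebpd held few or no reads. Ratios were taken per library as log2 of 5′UTR over CDS reads, each with 0.5 added, and corrected for length. Onecut1 stood at 0.12 ± 0.47 (SD, n = 14) and was above 0 in 10 of 14 libraries, with 3114 reads in 376 nt of 5′UTR and 9785 in the CDS. Cebpa, on the transcript that starts at nt 127, stood at -0.65 ± 0.53, Foxa3 at -1.08 ± 0.59 and Prox1 at -1.18 ± 0.50. Foxa1 had -2.32 ± 0.74 and Foxa2 -2.61 ± 1.18. The median over 16838 transcripts was -1.51 for reads summed over the libraries, and 16.9% of these transcripts were above 0. Onecut1 lay at the 87.3th percentile of that distribution and Cebpa at the 72nd.

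**Figure D3:**
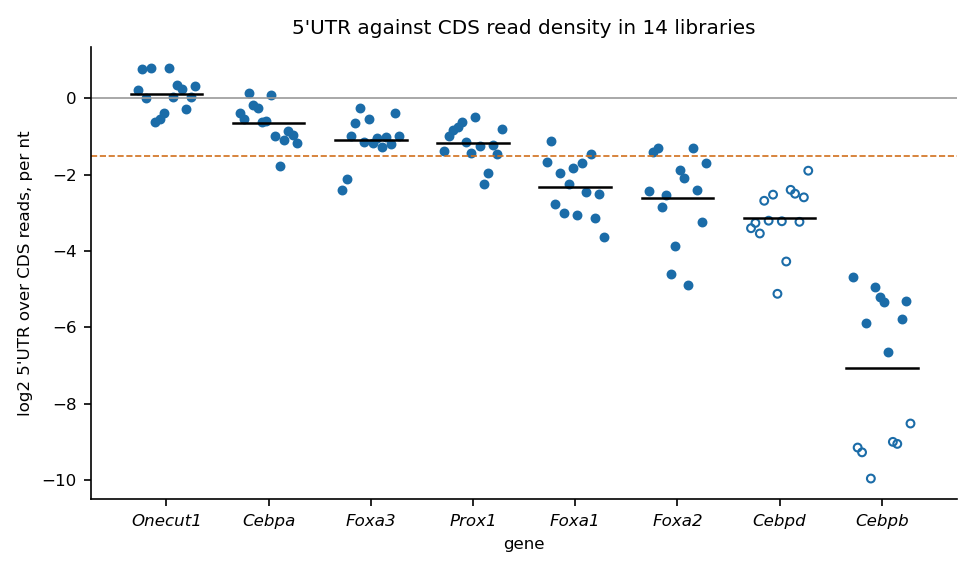
Log2 of 5′UTR over CDS reads per nucleotide in the 14 libraries of each gene (0.5 added to both counts), with the mean as a bar. Open points had 0 reads in the 5′UTR, the dashed line is the median over all transcripts at -1.51, and Onecut1 is the one gene with a mean above 0.

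The 5′UTR before the first Cebpb start, 107 nt long, held 55 reads in all libraries together, 0 to 17 per library, against 37023 in the CDS. The 39 nt before the Cebpd start held 0 of 1513 reads, which allows a share of up to 0.198%, so its ratio is set by the added 0.5 and is no measurement. If reads were placed at an A site, a set distance from their 5′ end, part of these 39 nt could hold none. As a share of 5′UTR and CDS reads, the Onecut1 5′UTR took 14.8% to 32.0% per library, that of Cebpa 3.30% to 11.5% and that of Foxa2 0.216% to 3.12%. Intervals and upper limits here cover counting error only, since the libraries had no molecular identifiers.

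The balance between 5′UTR and CDS was tested for a 24-h cosine with limma in the 7640 transcripts that averaged 10 or more reads in both regions, 12 of them from the 8 genes. None of the 12 passed, and 0 of 7640 passed in all (0% called), while 377 had an unadjusted p under 0.05. Among the genes, Cebpa had the smallest adjusted p, 0.809, which Prox1 and Foxa2 shared. The Onecut1 5′UTR share was 14.8% and 15.4% in the 2 CT8 libraries, its lowest values, with an adjusted p of 0.88 (limma).

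Because the Cebpa transcripts differ in their start codon alone, the counts of a longer CDS minus those of a shorter one give the reads between 2 starts, and the same holds for Cebpb. Reads of different frames in one stretch, such as the uORF and an extended CDS, are not separated by these counts. Of 79165 Cebpa reads in the 5′UTR and CDS, 3 lay in the 15 nt before the CTG. If each read was placed at an A site, as for the authors' density profiles, few could fall so near the 5′ end of the mRNA. The near absence of reads there is then no measure of the CTG start. The 111 nt from the CTG to the next start, which hold the uORF, carried 5948 reads, 53.6 per nt, and 7.24% ± 2.36 of the reads (SD, n = 14). As a geometric mean over the libraries, the density of these 111 nt was 0.723 of that in the CDS downstream, with a log2 ratio of -0.47 ± 0.53.

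Downstream of the uORF the Cebpa density dipped and then leveled. The 42 nt between the starts at nt 127 and 169 had 31.9 reads per nt, a log2 ratio to the shorter CDS of -1.29 ± 0.84 that was below 0 in 14 of 14 libraries. The stretch from nt 169 to the start at nt 478 had 64.3 reads per nt and that from nt 478 to nt 766 had 72.4, with ratios of -0.18 ± 0.33 and 0.01 ± 0.27. From the last start to the stop codon there were 70.5 reads per nt.

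In Cebpb the 63 nt between the first and second starts, which hold its uORF, had 52.8 reads per nt. As a geometric mean over the libraries, its density was 1.2 times that of the shorter CDS. The log2 ratio was 0.27 ± 0.42 and above 0 in 9 of 14 libraries. The next 390 nt had 36.8 reads per nt, below the density after the last start (44.0 per nt) in 14 of 14 libraries, with a log2 ratio of -0.28 ± 0.15. The 5′UTR before the first start had 0.514 reads per nt.

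**Figure D4:**
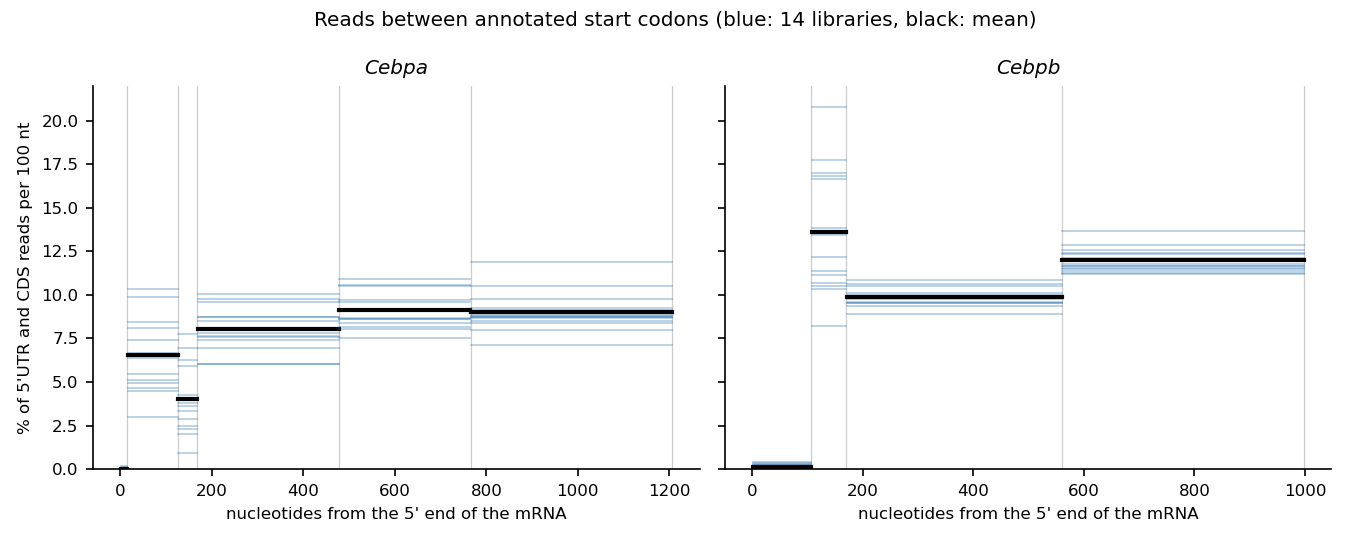
Share of 5′UTR and CDS reads per 100 nt in the stretches between the annotated starts of Cebpa and Cebpb, against distance from the 5′ end of the mRNA, with 1 blue line per library and the mean in black. The stretch before the first start is nearly empty in both genes, and that of the Cebpa uORF lies below the later CDS on average. In Cebpa the first stretch is only 15 nt long, where few reads could fall if placed at an A site.

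All 6 such stretches were tested for a 24-h cosine in their ratio to the shorter CDS, with a permutation test of 100000 shuffles of the time labels. The stretch with the Cebpa uORF had a raw p of 0.0195 and, adjusted over the 6 stretches, 0.117, so no rhythm was called by this permutation test. Its share of reads was 8.26% and 7.39% at CT0, 11.5% and 9.39% at CT4, 8.97% and 7.07% at CT8, 7.20% and 11% at CT12, 5.51% and 3.30% at CT16, 5.19% and 6.05% at CT20, and 5.67% and 4.96% at CT24. The 6 mice from CT16 to CT24 were all below the 8 earlier ones. This split was picked after seeing the values, and it parts CT24 from CT0, the same phase of a 24-h cycle. Over all transcripts, the 5′UTR share of counts was also lowest in the CT16 libraries, at 5.93% and 5.72%. It was highest in CT20 replicate 1, at 9.74%. The stretch with the Cebpb uORF ranged from 5.18% to 13.1% and had an adjusted p of 0.353 by the permutation test.

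The genes whose levels followed each member most closely over the 14 libraries were named by Pearson r of log2 CPM among 12029 transcripts averaging 100 or more reads, a description in which libraries share their scaling. Foxa1 and Foxa2 were each other's closest match (r = 0.923), with Id3, an inhibitor of helix-loop-helix factors, next for both (0.904 and 0.912). Cebpa was closest to Map1lc3a (0.908), an autophagosome protein, and Hs3st3b1 (0.840). Cebpb was closest to Gpatch8 (0.866) and Atg2a (0.860), and Foxa3 to Cpsf6 (0.899), a cleavage and polyadenylation factor, and Card19 (0.858). Onecut1 was closest to Zfp397 (0.829) and Tmem120a (0.828), Prox1 to Mrps23 (0.864) and Ezr (0.831), and Cebpd to Cptp (0.854) and Ube2m (0.830). Among the 8 genes themselves, Cebpb and Foxa3 had r = 0.67 and Onecut1 and Prox1 -0.42.

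Genes that act with the 8 factors were counted by the same cosine, 1 transcript per gene, and 10.6% of all genes were called in a fit with 1 transcript each. Of 11 genes tested from a list of C/EBP relatives, other bZip factors and associated genes, 5 passed, with a median peak-to-trough of 0.95 on the log2 scale. They were the bZip factors Dbp, Tef, Nfil3 and Atf5, and Trib1 (adjusted p = 0.0407, edgeR), which is no bZip factor but a pseudokinase adaptor known to target C/EBP proteins for degradation. The largest differences were those of Dbp and Tef, circadian PAR bZip factors, at 6.63 and 2.56. Of 19 other liver-enriched factors 4 passed (2 without CT12 replicate 1, median 0.40 with all libraries), led by Gata4 at 0.98 and Ppara, the fasting-response nuclear receptor, at 0.82. Of 22 hepatocyte genes known as C/EBP or FOXA targets 9 passed (median 0.55), led by Cyp7a1, the rate-limiting enzyme of bile acid synthesis, at 2.74 and Pck1, a gluconeogenic enzyme, at 1.92. The counts of these targets and of the C/EBP list both moved in runs without 1 library, down in some and up in others. Of 14 acute phase and immediate early genes 7 passed (median 1.24), among them the serum amyloids Saa2 (adjusted p = 0.00833, edgeR) and Saa1 (0.00558), whose fitted differences of 2.88 and 2.41 rest on 2 libraries. Saa1 stood at 124 CPM in CT8 replicate 2 and 149 in CT12 replicate 1, against 11.6 to 25.3 in the other 12, and Saa2 at 62.2 and 104 against 4.87 to 11.3. Without both libraries neither was called (0.898 for Saa2 and 0.332 for Saa1), and 2 of the 14 genes passed (4 without CT8 replicate 2 alone, median 0.75 without both), where 7.51% of all transcripts did.

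Among the cell type markers, 2 of 7 hepatocyte genes passed, Serpina1c at a peak-to-trough of 0.98 on the log2 scale and Tat at 0.90, and of 5 cholangiocyte genes 1, Sox9 at 1.39. All 6 pancreas genes tested passed, led by Prss2 at 11.06 and Cel at 10.77, on the one CT20 library described above, and 0 passed without it. The count of hepatocyte genes fell without CT4 replicate 1, CT4 replicate 2, CT8 replicate 1 or CT16 replicate 2. It rose without CT16 replicate 1. That of cholangiocyte genes rose without CT0 replicate 2, CT20 replicate 1 or CT24 replicate 1. No marker of Kupffer cells, sinusoidal endothelium, lymphatic endothelium, stellate cells or neutrophils was called by the cosine with all libraries (edgeR), and 1 stellate cell gene was called without CT4 replicate 1. Among times, the stellate cell gene Col1a1, a collagen chain, had an adjusted p of 0.0305 (edgeR). The mean summed levels of the lists other than hepatocytes were lowest at CT16, as given above, and that of hepatocytes at CT4.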

How the data were processed

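The authors clipped adapters, removed rRNA reads and aligned the rest to mm10 (Bowtie 2.1.0.0 and SAMtools 0.1.19.0 per the submitters' processing notes), and deposited raw, unnormalized read counts by transcript and region (5′UTR, CDS or 3′UTR). For their density profiles the authors kept reads with a single genomic location and gave each read, by its length, an A site a set distance from its 5′ end. The paper states that UTR reads were allocated to uORFs by the same way of placing reads. Whether the deposited region counts follow this rule is not stated. It decides where reads near a start codon or the 5′ end of an mRNA fall. The counting tool, strand and handling of overlapping transcripts are not given in the sources used here. Cebpd, Foxa1, Onecut1 and Prox1 overlap genes of the opposite strand, and Onecut1 overlaps Gm38678 on its own strand over 10748 nt, so their counts are uncertain to that extent. The last pair is CT24 by title. CT16 replicate 2 was run again, and that run was not used separately. RefSeq sequences came from GRCm38.p6.

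Transcripts averaging 10 or more counts were fitted in edgeR 4.0.16 (R 4.3.3) with TMM scaling, adjusted by Benjamini-Hochberg. limma 3.58.1 served for ratios and DESeq2 1.42.0 as an alternative. The fits and JTK_CYCLE were tested on simulated data. JTK_CYCLE was written anew. Its adjusted P was corrected over the phases tried within each transcript, not over transcripts. Of 24 settings of its cosine tried, the one with pi rounded to 3.1416 was kept because it gave the adjusted P listed by the authors, so it is not an independent check of them. A version with unrounded pi, and a fit without CT8 replicate 2 and CT12 replicate 1, were added after seeing the data. Python 3.11 with numpy 2.4.6 and matplotlib 3.10.9 did the rest.

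The members and gene lists were chosen with earlier results of these data known. All transcripts of the 8 genes are named, the transcript with most reads standing for its gene (ties to the lowest accession), as are the 2 genes most like each member and, in each list, the 2 called genes with the largest peak-to-trough.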

Additional observations from a re-analysis of the deposited data

How the results depend on the processing

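The number of the 8 genes with a called rhythm (2) became 0 with total-count scaling, 0 with JTK_CYCLE on total-count RPKM, 0 with JTK_CYCLE on total-count values with cosine ties kept, 1 without CT12 and 1 without CT24. It was 2 in all runs without 1 library, without both libraries high in serum amyloid (CT8 replicate 2 and CT12 replicate 1), with the replicate block, and with JTK_CYCLE on TMM-scaled values in either version. Calls over all transcripts (1947) were 1251 with 1 transcript per gene, where fewer were tested, 1159 without CT8, 1059 without CT12, 1295 without both serum amyloid libraries, 3840 with JTK_CYCLE on total-count RPKM and 3069 on TMM-scaled values, and ran from 1499 to 2062 without 1 library. With unrounded pi and cosine ties kept, JTK_CYCLE made 2350 and 2398 calls, so pi and the handling of ties together moved the total-count figure by over 1.5 times. The adjusted P of JTK_CYCLE was not corrected over transcripts. All its calls, those of the 8 genes included, are thus at a looser threshold than the edgeR calls. List genes called (33) were 19 under total-count JTK_CYCLE with ties kept.

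Genes called among times (2) were 4 with total-count scaling, 4 at a minimum mean count of 1, 4 at 100, 1 with CDS reads only (Foxa3 at an adjusted p of 0.0505), 1 with 1 transcript per gene (Onecut1 at 0.0522), 1 without both serum amyloid libraries, 0 without CT16 and 0 to 3 without 1 library. Such runs leave 1 mouse at a time, taken to vary like the others. The 0 followed omission of CT16 replicate 1, CT24 replicate 1 or CT24 replicate 2, so these calls rest on single libraries. Steps of the density order past their spread (5) were 3 for whole-transcript density, where Cebpa over Cebpb (0.37 ± 0.44) and the step below Foxa3 (over Onecut1, 0.68 ± 0.98) fell within their spread. Ratio rhythms stayed at 0 throughout, and the counts for 5′UTR levels and for stretches between starts stayed within 1.5 times, at 1 and at 4 to 5.

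The replicate number was no known pairing: differences between the 2 mice correlated between times at -0.06 to 0.17. With it as a block, 1916 transcripts were called, Cebpb at an adjusted p of 0.0179, Foxa3 at 0.00476 and Onecut1, among times, at 0.0323 (edgeR), and no call of the 8 genes changed. Low counts limit Cebpd and the 5′UTR values of Cebpb and Foxa2 most.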
